A study of Bos taurus and Ovis aries and Capra hircus with 27 samples.

Results

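The goat models described here were chosen by sequence alone, through a motif of trypsin-like serine proteases. Every model whose deposited protein holds the 6-residue motif GDSGGP around the catalytic serine, and whose identifier carries no copy suffix, was taken, which gave 56 models. They stand among 17139 goat models with a protein entry and no copy suffix, and among 22131 goat models in the expression table. The values come from 9 goat messenger RNA libraries, 3 of heart, 3 of liver and 3 of kidney, from indigenous goats of about 3 years of age, for which the labels name no treatment. The study's methods describe 3 unrelated adult females of each high-altitude and each low-altitude population as the source of the tissues. Replicate 1, 2 or 3 of each tissue was therefore read as one animal. The altitude of these goats is not given here. The paper also states that the goat heart libraries have duplicates among other deposited records, which represent the same samples. Whether heart libraries were prepared apart from the others was not tested.

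Trypsin-like serine proteases cut proteins with a catalytic triad of histidine, aspartate and serine. They are made as inactive zymogens that are switched on by a cut. The liver is known to secrete many of them into the blood, among them prothrombin, the vitamin K-dependent coagulation factors and plasminogen, the precursor of the clot-dissolving enzyme plasmin. Others digest food in the gut, are stored in granules of blood cells, or are anchored in the cell membrane. A residue at the base of the substrate pocket, 6 positions before the catalytic serine, largely sets what is cut: aspartate there goes with cutting after lysine or arginine, the specificity of trypsin itself.

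The identifiers could not be paired with gene names, so the models are given by identifier, position and protein features, and any likeness to a known protease names an arrangement of domains and not the gene. Of the 56 identifiers, 34 derive from cattle proteins, 17 from human proteins and 5 are gene predictions. Positions are on the scaffolds named in the headers of the deposited proteins. The study's methods give the goat assembly CHIR_1.0, while the labels name a cattle build for these libraries too, and no genome was at hand to compare them with. For the same reason the tissue labels were not checked against marker genes.

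The label of a serine protease was checked with features that the motif did not use. A pattern around the catalytic histidine lay before the serine in 47 of the 56 proteins (83.9%), against 61 of the 17139 models (0.356%). The cysteine 2 residues before the motif was present in 48 and missing in 8. Aspartate stood at the specificity position in 36 proteins, serine in 7, glycine in 4, leucine in 3 and alanine in 2, with threonine, proline, glutamine and glutamate in 1 each. All 3 features, that is aspartate, cysteine and the histidine pattern, occurred together in 31 proteins. Both the cysteine and the histidine pattern were missing in 2. One of these is GOAT_ENSP00000293349, a protein of 760 residues with the motif near residue 552 and glutamate at the specificity position, which is therefore called here a model with the motif and not a protease. The other, GOAT_ENSBTAP00000046937 (375 residues, glutamine at the specificity position), is treated in the same way and was listed at 0 in all libraries. Proteins ranged from 144 to 1044 residues with a median of 391.5, and each held 1 copy of the motif.

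The 56 models fell into an expressed minority and a larger group that was barely detected. Levels are FPKM, fragments per kilobase of model scaled to the number of mapped fragments, back-calculated from the deposited log2(FPKM + 1) values. A model was tested if it exceeded 0.5 FPKM in at least 3 of the 9 libraries. This held for 19 of the 56 (33.9%), compared with 10850 of the 17139 models with a protein entry (63.3%). Of the 37 models not tested, 13 were listed at 0 in all 9 libraries and 24 had a value above 0 in at least 1 library. Only 3 of the 37 exceeded 0.5 FPKM anywhere. The number of the 56 above 0.5 FPKM was 6 to 8 in heart libraries, 14 to 16 in liver and 12 to 14 in kidney.

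Modular proteins made up the tested group to a large extent. Beyond the protease domain, patterns of kringles (small triple-disulfide loops that bind other proteins), EGF-like modules, LDL receptor class A repeats, Gla domains (which bind calcium through carboxylated glutamates) or fibronectin modules were found in 11 of the 56 proteins. Of these 11, 10 were among the 19 tested and 1 among the 37 not tested. The median length was 491 residues in the tested proteins and 300 in the others. Aspartate at the specificity position was found in 12 of the 19 tested and 24 of the 37 not tested.

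**Figure D1:**
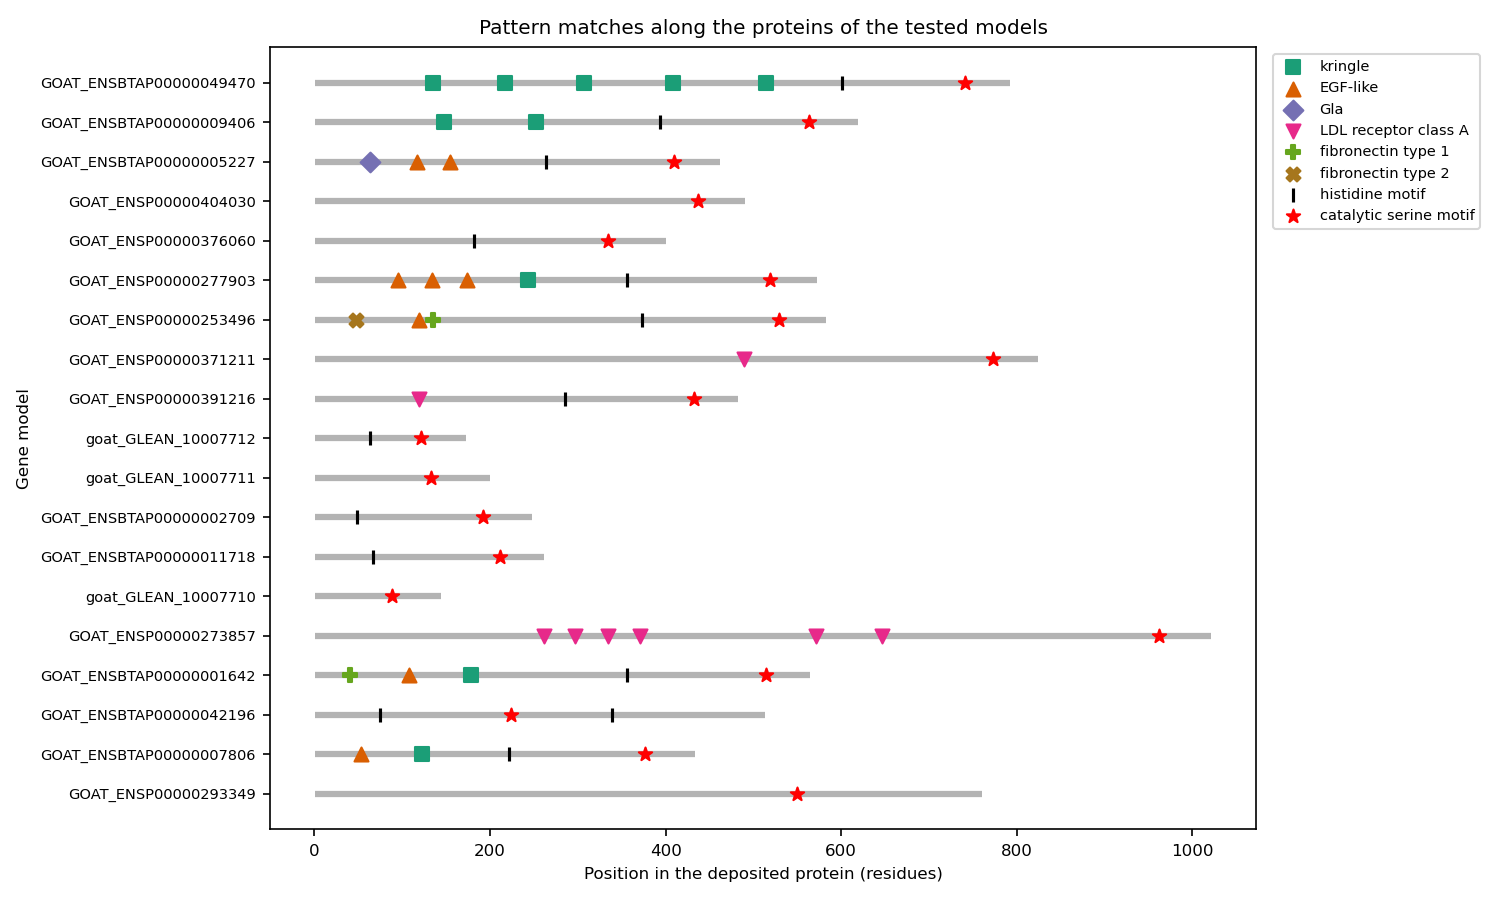
Pattern matches along the deposited proteins of the 19 tested models, with position in residues on the horizontal axis and 1 model per line, ordered as elevated in liver (first 9), elevated in kidney (next 5), elevated in heart (1) and elevated in no tissue (last 4). Grey bars show the protein length and symbols the start of each pattern match; the models elevated in kidney are short, 144 to 261 residues, and carry no module pattern.

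Tissue differences of the 19 were tested with limma on log2(FPKM + 1) across all 13634 goat models that passed the same filter, with Benjamini-Hochberg adjustment. A model is called elevated in a tissue if it was higher there than in both other tissues. Of the 19, 9 were elevated in liver (47.4%), 5 in kidney (26.3%), 1 in heart (5.26%) and 4 in no tissue. Over all tested models the shares were 9.59% for liver, 34.2% for kidney and 14.5% for heart. The kidney share of all models depended on scaling: with median ratio scaling it was 16.6% (liver 15.4%, heart 19.5%), and with quantile normalization 19.4% (liver 13%, heart 19.7%). The 5 models stayed the only ones elevated in kidney under both, so that their share of the 19 was below that of all models in the deposited values and above it after either scaling. In liver the 9 stayed elevated and the count rose to 11 with median ratio scaling and 10 with quantile normalization, above the share of all models throughout, while heart had 1 and 3. A model that passes the filter through 1 tissue alone is bound to differ, so these counts describe the models that passed and not the 56. The p-value of such a model is no separate evidence of a difference. In whole tissue, fewer cells of a type and less RNA per cell cannot be told apart.

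**Figure D2:**
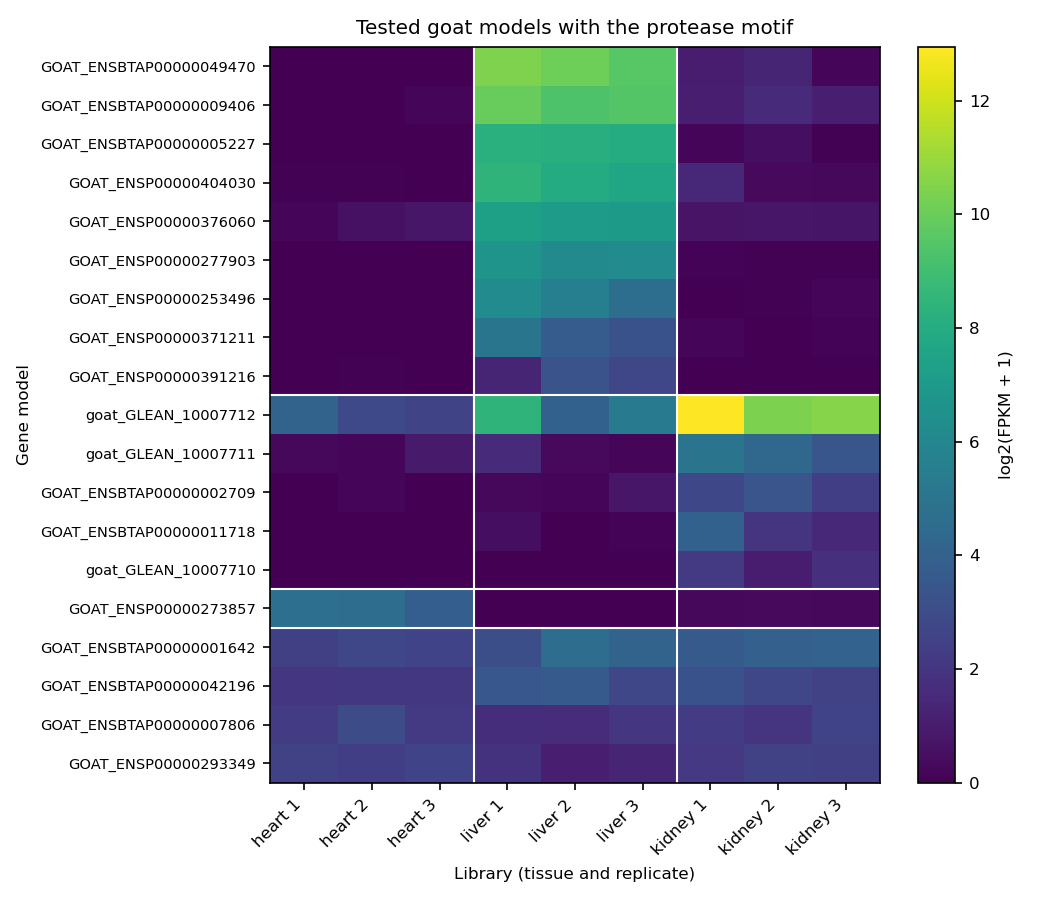
Level of the 19 tested models (rows) in the 9 goat libraries (columns), as log2(FPKM + 1) on the colour scale. White lines separate tissues and the models elevated in liver, in kidney, in heart and in none; the upper 9 rows are bright in the 3 liver libraries, and goat_GLEAN_10007712 is the brightest row in kidney.

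By pair of tissues, 11 of the 19 were higher in liver than in heart and 2 were higher in heart, against 19.6% and 29.6% of all tested models (26.8% and 27% with median ratio scaling, where the 19 again gave 11 and 2). The median difference of heart minus liver was -2.45 on the log2(FPKM + 1) scale for the 19 and 0.10 for all tested models. Between heart and kidney, 9 were higher in kidney and 1 in heart, against 45.3% and 17.9% of all tested models, with median differences of heart minus kidney of -0.66 and -0.55. The calls higher in heart were 10% of the calls in this comparison, 25% (2 against 6) when libraries were scaled by their median ratio and 33.3% (3 against 6) after quantile normalization. All tested models were then higher in heart in 29% and 28% and higher in kidney in 29.1% and 30%. Between liver and kidney, 9 were higher in liver and 6 in kidney, against 13.4% and 51.6% of all tested models. With median ratio scaling 11 and 5 were called, against 26.6% and 25.3% of all models, and with quantile normalization 10 and 5, against 22.4% and 30.8%. The median difference of liver minus kidney was 0.48 for the 19 and -0.69 for all tested models. With median ratio scaling the medians of all tested models were -0.04, -0.04 and -0.01 in the 3 comparisons.

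**Figure D3:**
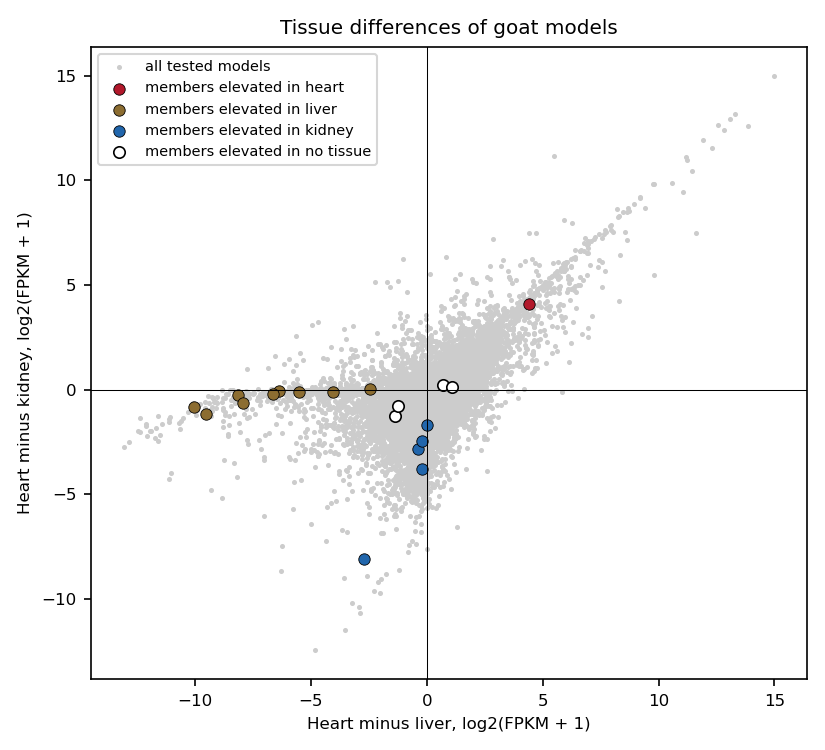
Difference of heart minus liver (horizontal) against heart minus kidney (vertical) on the log2(FPKM + 1) scale; both axes share the heart libraries. Grey points are the 13634 tested models and coloured points the 19 with the motif; the 9 elevated in liver lie to the left, between -2.45 and -10.04 on the horizontal axis, and between -1.18 and 0.02 on the vertical axis.

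The models elevated in liver were long and varied in their modules. The 9 models elevated in liver had proteins of 400 to 824 residues, 7 of them with a module pattern, and all 9 carried aspartate at the specificity position. In each of the 9, every liver library lay above every heart and kidney library. Such a lack of overlap was found for no other model of the 19 in liver and for 9.98% of all tested models. GOAT_ENSBTAP00000005227, GOAT_ENSP00000253496, GOAT_ENSP00000277903, GOAT_ENSP00000371211 and GOAT_ENSP00000391216 passed the filter through the liver libraries alone. For them the lack of overlap was fixed by the filter. The summed FPKM of the 9 was 3377, 2561 and 2199 in liver replicates 1, 2 and 3, against 0.214 to 0.912 in heart and 2.52 to 4.98 in kidney. They made up 90.1%, 97.9% and 97.0% of the summed FPKM of all 56 in the same liver libraries.

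GOAT_ENSBTAP00000049470 (scaffold 447, 615330 to 658307, plus strand) was the highest of these. Its 792 residues hold 5 kringles before the protease domain, the arrangement known from plasminogen. It reached 1403, 1100.0 and 779.5 FPKM in liver, was listed at 0, 0 and 0.0248 in heart, and reached 0.97, 1.49 and 0.171 FPKM in kidney. The liver mean was 1248 times the kidney mean, and liver minus kidney was 9.22 ± 0.30 (SE) on the log2(FPKM + 1) scale (limma, adjusted p = 3.87e-08). Its small difference of heart minus kidney, -0.83 ± 0.30 (adjusted p = 0.0377), was lost under both other scalings (adjusted p of 0.13 and 0.093) and without any 1 of the 3 heart libraries (0.079 to 0.085), without kidney replicate 1 (0.091) or 2 (0.14), and without liver replicate 2 (0.054).

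GOAT_ENSBTAP00000009406 (scaffold 516, 766679 to 781394, plus strand) holds 2 kringles in 619 residues. Prothrombin, the precursor of the fibrin-forming enzyme thrombin, also has 2 kringles but carries a Gla domain besides. No Gla pattern was found in this protein, but that pattern matched only 5 of the 17139 models and can miss a diverged domain. Its absence therefore does not set the model apart from prothrombin. The model reached 963, 651 and 722 FPKM in liver and 1.12, 1.96 and 1.14 in kidney, and was listed at 0, 0 and 0.152 in heart. Levels in liver were thus far above both other tissues, and kidney was above heart in every library. Liver minus kidney was 8.34 ± 0.22 (adjusted p = 1.33e-08) and heart minus kidney -1.18 ± 0.22 (adjusted p = 0.00115).

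GOAT_ENSBTAP00000005227 (scaffold 200, 1286409 to 1320957, plus strand) has a Gla pattern and 2 EGF-like patterns in 462 residues, the arrangement of the vitamin K-dependent coagulation factors. It was the only 1 of the 56 with a Gla pattern, which 5 of the 17139 models carried. Its levels were 301, 285 and 254 FPKM in liver and 0.186, 0.383 and 0.0487 in kidney, and it was listed at 0 in all 3 heart libraries. The spread in liver was small, with an SD of 23.7 around a mean of 280 FPKM (n = 3), and liver minus kidney was 7.87 ± 0.17 (adjusted p = 1.12e-08).

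A pair of liver models had none of the module patterns that were searched. GOAT_ENSP00000404030 (scaffold 1235, 292356 to 303464, minus strand; 491 residues) reached 338, 246 and 198 FPKM in liver, 1.84, 0.263 and 0.215 in kidney, and 0.0513, 0.0469 and 0 in heart. Its histidine pattern was not found, and liver minus kidney was 7.29 ± 0.34 (adjusted p = 2.39e-07). Heart minus kidney was -0.66 ± 0.34 (adjusted p = 0.112) and passed the threshold once the animal entered the fit as a block (adjusted p = 0.042). GOAT_ENSP00000376060 (scaffold 411, 34112 to 46741, minus strand; 400 residues) has a hydrophobic stretch from residue 26, a feature of proteases anchored in the membrane by their N-terminus. It reached 162, 140.1 and 131 FPKM in liver, 0.604, 0.693 and 0.674 in kidney, and 0.163, 0.521 and 0.735 in heart. It was the only liver model detected in all 9 libraries, and its low levels in heart and kidney overlapped (heart minus kidney -0.19 ± 0.19, adjusted p = 0.42).

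EGF-like and fibronectin modules marked a further pair. GOAT_ENSP00000277903 (scaffold 67, 3498529 to 3532599, minus strand; 572 residues) has 3 EGF-like patterns and 1 kringle. It reached 103, 71.2 and 75.2 FPKM in liver and 0.0739, 0.0665 and 0.0381 in kidney, and was listed at 0 in heart (liver minus kidney 6.29 ± 0.18, adjusted p = 1.66e-08). GOAT_ENSP00000253496 (scaffold 105, 1406760 to 1414906, plus strand; 583 residues) has a fibronectin type 2, an EGF-like and a fibronectin type 1 pattern, modules that coagulation factor XII and the activator of hepatocyte growth factor share. No kringle pattern was found in this model. It reached 74.6, 46.3 and 25 FPKM in liver and was listed at 0, 0.0673 and 0.154 in kidney and at 0 in heart. Its liver libraries were spread widely, and the difference of liver minus kidney was 5.40 ± 0.33 (adjusted p = 1.20e-06).

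LDL receptor class A repeats, cysteine-rich modules found in several membrane-anchored proteases, occurred in the last pair. GOAT_ENSP00000371211 (scaffold 1007, 287827 to 322897, plus strand; 824 residues) has 1 such repeat and a hydrophobic stretch from residue 44. It reached 32.2, 12.5 and 8.75 FPKM in liver and 0.181, 0.023 and 0.0788 in kidney, and was listed at 0 in heart (liver minus kidney 3.90 ± 0.37, adjusted p = 2.24e-05). GOAT_ENSP00000391216 (scaffold 514, 52258 to 84643, minus strand; 482 residues) has 1 repeat and a hydrophobic stretch from residue 78. It reached 1.55, 9.0 and 5.75 FPKM in liver, was listed at 0, 0.0486 and 0 in heart, and at 0 in all 3 kidney libraries. Heart minus liver was -2.45 ± 0.41 (adjusted p = 0.000793). Liver replicate 1 was the lowest here, whereas it was the highest of the 3 for the other 8 models elevated in liver.

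**Figure D4:**
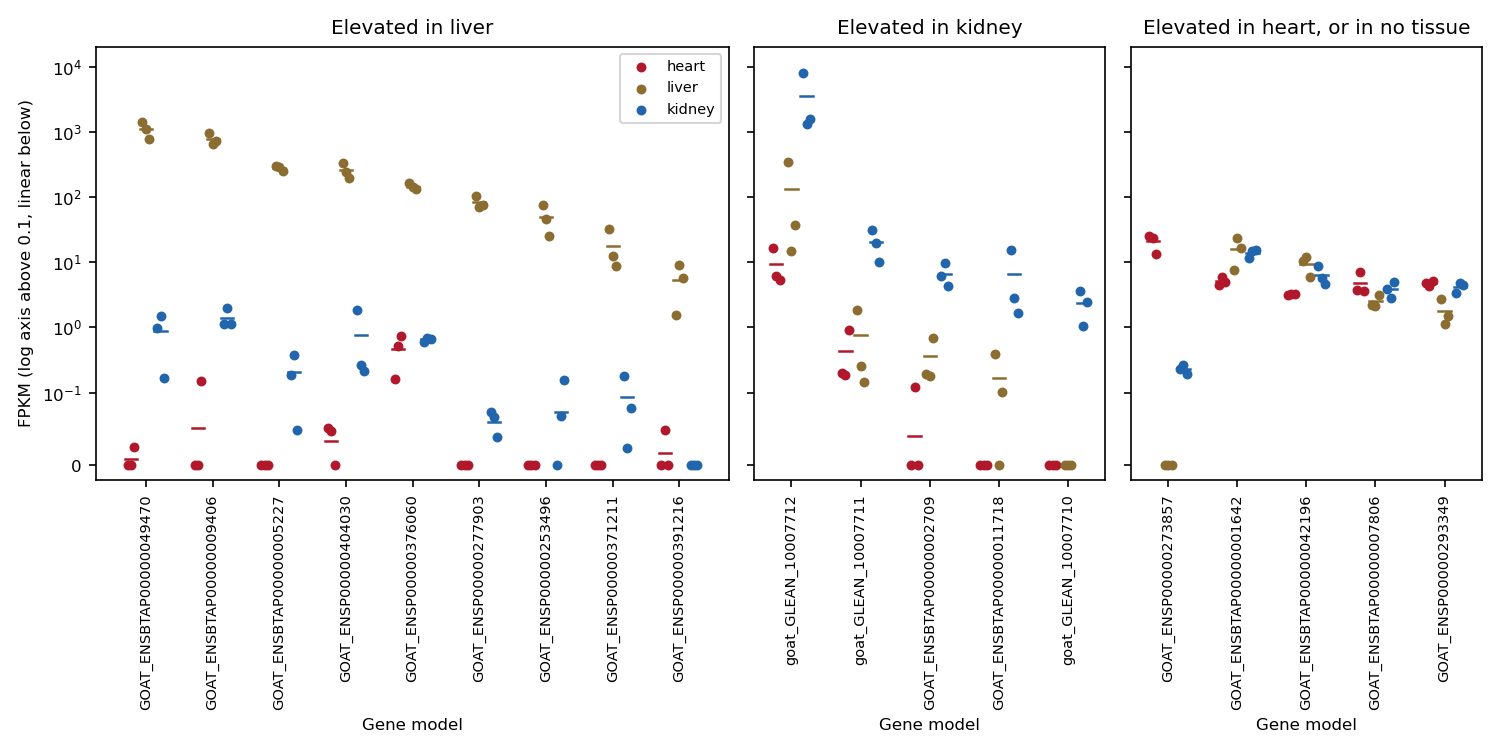
FPKM of the 19 tested models in each library (points, coloured by tissue; 3 per tissue) with the tissue mean as a short line. The vertical axis is logarithmic above 0.1 FPKM and linear below; liver points of the 9 models elevated in liver lie between 1.55 and 1403 FPKM, and goat_GLEAN_10007712 reaches 7895 FPKM in kidney.

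Kidney showed a different set. The 5 models elevated there had proteins of 144 to 261 residues, and none had a module pattern. None carried aspartate at the specificity position: glycine stood there in 2, alanine in 2 and leucine in 1. Among the 5, the serine motif started nearer the beginning of the protein in the gene predictions than in the models derived from cattle proteins. In goat_GLEAN_10007712 the histidine pattern was also closer to that motif. Whether the gene predictions are complete was not tested. Their length, missing patterns and specificity residue therefore describe the deposited proteins only. All 4 models of scaffold 1620, which lie within 231.7 kb, were among the 5. In each of the 5, every library of kidney lay above those of the other tissues in the deposited values. This held for no other model of the 19 in kidney and for 36.4% of all tested models. For goat_GLEAN_10007710 and GOAT_ENSBTAP00000011718 it was fixed by the filter, which they passed through the kidney libraries alone.

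One model outweighed the rest. goat_GLEAN_10007712 (scaffold 1620, 976544 to 978570, plus strand) is a gene prediction of 173 residues with the histidine pattern, leucine at the specificity position and no cysteine 2 residues before the motif. It reached 7895, 1331 and 1563 FPKM in kidney, 344, 15 and 37.3 in liver, and 16.3, 6.17 and 5.31 in heart. Replicate 1 was the highest in every tissue, and the kidney values did not overlap with the others. Heart minus kidney was -8.11 ± 1.08 (adjusted p = 0.000166) and liver minus kidney -5.41 ± 1.08 (adjusted p = 0.00183). Heart minus liver was -2.69 ± 1.08 (adjusted p = 0.0639), and it passed the threshold with the animal as a block (adjusted p = 0.0021), without liver replicate 2 (0.023) and without kidney replicate 1 (0.049). Replicate 1 exceeded the mean of the other two 2.84 times in heart, 13.1 times in liver and 5.46 times in kidney. A strictly highest value in replicate 1 of all 3 tissues was found for 641 of the 13634 tested models (4.70%) and for 2 of the 19, the other being GOAT_ENSP00000404030.

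This model made up 98.8%, 95% and 96.7% of the summed FPKM of the 56 in the 3 kidney libraries. That sum was 7987, 1401 and 1616 FPKM in kidney, 3748, 2617 and 2266 in liver, and 58.3, 52.2 and 38.1 in heart. As a share of all FPKM in the library it was 0.221% to 1.23% in kidney, 0.366% to 0.652% in liver and 0.00460% to 0.00713% in heart. Without goat_GLEAN_10007712 the kidney sums were 92.0, 70.1 and 53.2 FPKM, below each liver library. 

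The other models of scaffold 1620 were lower. goat_GLEAN_10007711 (971487 to 973713, plus strand; 200 residues, glycine at the specificity position) reached 30.9, 19.6 and 10 FPKM in kidney, 1.87, 0.261 and 0.145 in liver, and 0.198, 0.183 and 0.903 in heart (heart minus kidney -3.80 ± 0.45, adjusted p = 8.52e-05). goat_GLEAN_10007710 (964451 to 967665, plus strand; 144 residues, glycine) reached 3.57, 1.06 and 2.46 FPKM in kidney and was listed at 0 in all 6 other libraries (adjusted p = 0.000353 for liver against kidney). The histidine pattern was not found in either. GOAT_ENSBTAP00000002709 (746857 to 748917, plus strand; 248 residues, alanine, with the histidine pattern) reached 6.08, 9.59 and 4.26 FPKM in kidney, 0.196, 0.181 and 0.7 in liver, and was listed at 0, 0.123 and 0 in heart. For the latter, heart minus kidney was -2.82 ± 0.26 (adjusted p = 1.65e-05) and liver minus kidney -2.45 ± 0.26 (adjusted p = 4.23e-05). Kidney replicate 1 was the highest for the 3 predicted models and replicate 2 for the model derived from a cattle protein.

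The fifth kidney model lay elsewhere. GOAT_ENSBTAP00000011718 (scaffold 521, 289752 to 303198, plus strand; 261 residues, alanine) reached 15.2, 2.79 and 1.67 FPKM in kidney and was listed at 0.394, 0 and 0.101 in liver and at 0 in heart. Replicate 1 stood well above the other kidney libraries, and liver minus kidney was -2.25 ± 0.55 (adjusted p = 0.0055).

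Heart had 1 elevated model, which was also the longest of the tested proteins. GOAT_ENSP00000273857 (scaffold 94, 1522305 to 1755484, minus strand; 1021 residues) has 6 LDL receptor class A repeats, a hydrophobic stretch from residue 17 and aspartate at the specificity position. This arrangement is known from corin, the membrane-anchored protease of heart muscle cells that cuts the precursor of atrial natriuretic peptide. It reached 25.2, 23.8 and 13.5 FPKM in heart and 0.230, 0.264 and 0.194 in kidney, and was listed at 0 in all 3 liver libraries. The heart mean was 90.8 times the kidney mean, with heart minus kidney at 4.10 ± 0.22 (adjusted p = 6.49e-07). Its heart libraries all lay above the others, as in 16.4% of all tested models. It passed the filter through the heart libraries alone, which fixed this lack of overlap. It supplied 35.5% to 45.5% of the summed FPKM of the 56 in heart. No histidine pattern was found in this protein.

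The remaining 4 models were detected above 1 FPKM in all 9 libraries, as was goat_GLEAN_10007712, and were elevated in no tissue in the deposited values. GOAT_ENSBTAP00000001642 (scaffold 439, 166674 to 177266, plus strand; 565 residues) has 1 fibronectin type 1, 1 EGF-like and 1 kringle pattern. These kinds of module also occur in tissue-type plasminogen activator, the enzyme that turns plasminogen into plasmin on clots. The likeness is in the kinds of module and not in their number. It reached 4.45, 5.86 and 5.03 FPKM in heart, 7.57, 23.9 and 16.6 in liver, and 11.5, 14.7 and 15.6 in kidney. All heart libraries were below all others, with heart minus liver at -1.35 ± 0.35 (adjusted p = 0.00976) and heart minus kidney at -1.28 ± 0.35 (adjusted p = 0.0097). The second of these calls was lost with median ratio scaling (adjusted p = 0.088) and quantile normalization (0.1). With median ratio scaling, liver exceeded kidney (adjusted p = 0.032), which it did not in the deposited values (0.07 ± 0.35, adjusted p = 0.874).

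GOAT_ENSBTAP00000007806 (scaffold 509, 5188069 to 5192796, minus strand; 433 residues) has 1 EGF-like and 1 kringle pattern, as in urokinase, the other main plasminogen activator. It reached 3.8, 7.05 and 3.57 FPKM in heart, 2.24, 2.17 and 3.13 in liver, and 3.85, 2.83 and 4.98 in kidney. The tissues lay close together, and no comparison passed the threshold (heart minus liver 0.69 ± 0.27, adjusted p = 0.0593). Heart exceeded kidney with median ratio scaling (adjusted p = 0.027) and quantile normalization (0.0093), and heart exceeded liver with the latter (0.048).

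GOAT_ENSBTAP00000042196 (scaffold 6, 745921 to 750268, plus strand; 513 residues) has the histidine pattern both before and after its serine and glycine at the specificity position. It reached 3.12, 3.23 and 3.21 FPKM in heart, 10.4, 11.9 and 5.87 in liver, and 8.74, 5.73 and 4.67 in kidney. Heart was lowest, with heart minus liver at -1.26 ± 0.28 (adjusted p = 0.00446) and heart minus kidney at -0.78 ± 0.28 (adjusted p = 0.0339). The call against kidney was lost under both other scalings (adjusted p of 0.62 and 0.86), without any 1 heart library (0.074 to 0.08) and without kidney replicate 1 (0.11) or 2 (0.064). Liver exceeded kidney under both scalings (0.014 and 0.015) and without liver replicate 3 (0.026), but not in the deposited values (0.48 ± 0.28, adjusted p = 0.158).

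GOAT_ENSP00000293349 (scaffold 488, 1035831 to 1050988, minus strand), the model that lacked the other protease features, reached 4.73, 4.30 and 5.16 FPKM in heart, 2.77, 1.11 and 1.51 in liver, and 3.39, 4.76 and 4.47 in kidney. In the deposited values it was the only 1 of the 19 other than the heart model to be called higher in heart than in liver (1.07 ± 0.23, adjusted p = 0.00412). Kidney also exceeded liver (liver minus kidney -0.93 ± 0.23, adjusted p = 0.00664), a call lost with median ratio scaling (0.46) and quantile normalization (0.67). Heart exceeded kidney with quantile normalization (0.018).

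Several of the models that were barely detected lay side by side. The 56 lay on 33 scaffolds, and 10 scaffolds held 2 or more, 33 models in all. On scaffold 1620 all 4 were tested. On scaffold 283, none of 7 models within 154.9 kb was tested, 3 were listed at 0 in all libraries and the highest value was 0.728 FPKM. On scaffold 433, none of 7 models within 522.2 kb was tested, 5 were listed at 0 throughout and the highest value was 0.438 FPKM. The 3 models of scaffold 1497 lay within 66 kb and reached 0.582 FPKM at most. These low values are near the limit of what FPKM without read counts can show, and a model listed at 0 may be unexpressed or not estimated.

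**Figure D5:**
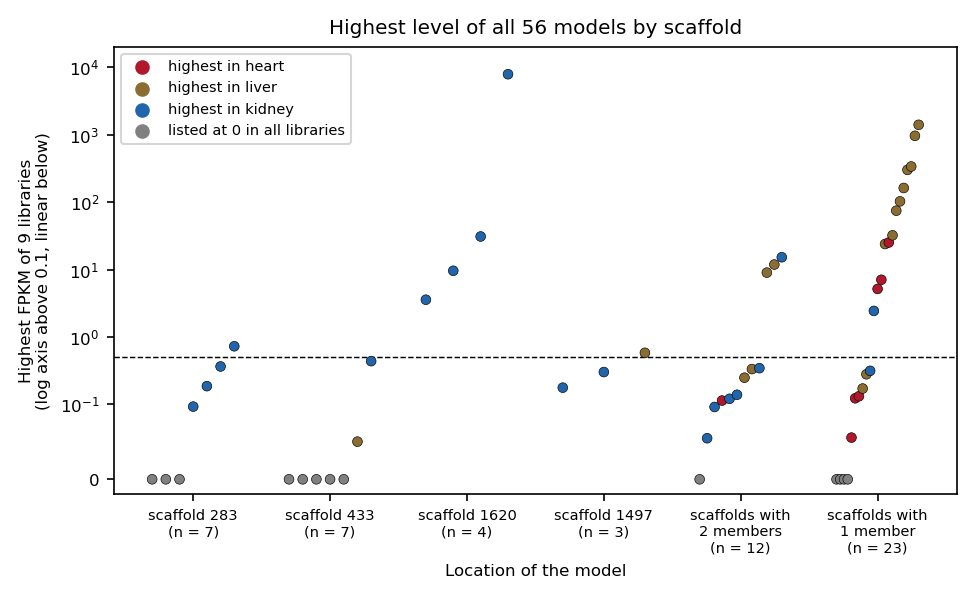
Highest FPKM over the 9 libraries for each of the 56 models, grouped by scaffold, coloured by the tissue of that library; grey points at the bottom are listed at 0 in all libraries. The vertical axis is logarithmic above 0.1 FPKM and linear below, and the dashed line marks 0.5 FPKM; all 4 models of scaffold 1620 lie above it, against 1 of 7 on scaffold 283 and none of 7 on scaffold 433.

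Sequence identity was compared between neighbours and others. The protease regions (180 residues before to 45 after the serine) of 1378 pairs could be aligned over at least 150 residues, with a median identity of 37.4% and a range of 22.7% to 78.2%. The median was 49.3% over 53 pairs on the same scaffold and 37.3% over 1325 pairs on different scaffolds. Within scaffold 433 it was 52.7% (47.4% to 56.2%), and the 7 proteins were of nearly one length, 414 to 439 residues, all with aspartate at the specificity position. Within scaffold 283 it was 47.3% (39.7% to 54.0%), in proteins of 215 to 293 residues, a size of little more than the protease domain. The 2 pairs of scaffold 1620 that could be aligned shared 27.1% and 30.5%. Every pair on that scaffold includes a gene prediction with fewer than 180 residues before the serine, so the compared region was cut short. Whether these predictions are complete was not tested, and no divergence of these neighbours is read from the low identity. Pairs share proteins, so these identities are a description. The closest pair, GOAT_ENSP00000354294 and goat_GLEAN_10011117 on scaffold 1217, shared 78.2% and was barely detected, at 0.114 FPKM in heart replicate 3 and 0 elsewhere for the first and 0 throughout for the second.

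Among the models not tested, the highest library was a kidney library in 14, a liver library in 6 and a heart library in 4, and 13 had no value above 0. The same count was not made over all models, and the typical model had higher FPKM in kidney libraries. Most of these values were also below 0.5 FPKM, so no leaning of these models to a tissue is read from the counts. The 3 that exceeded 0.5 FPKM somewhere, singled out after their values were seen, all carried aspartate at the specificity position. GOAT_ENSBTAP00000006807 (264 residues) reached 1.48, 2.44 and 0.207 FPKM in kidney and was listed at 0 in heart and liver. GOAT_ENSP00000314783 on scaffold 283 reached 0.201, 0.0898 and 0.728 FPKM in kidney and was listed at 0 elsewhere. GOAT_ENSBTAP00000010816 on scaffold 1497 was detected in 8 libraries, at 0.582, 0.459 and 0.494 FPKM in liver, 0.304, 0.182 and 0.208 in kidney, and 0, 0.307 and 0.102 in heart. The 1 model of this group with a module pattern, GOAT_ENSP00000369762 with an LDL receptor class A repeat, did not exceed 0.0965 FPKM.

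The 9 libraries had summed FPKM of 574638 to 828807 and correlated with r of 0.918 to 0.985 within a tissue (9 pairs). Their median ratio factors were 0.774 to 0.941 in heart, 0.648 to 0.904 in liver and 1.29 to 1.51 in kidney, so that the typical model had higher FPKM in kidney libraries than in the others. Read counts were not used here, so the depth behind each value is unknown.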

How the data were processed

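Heart, liver and kidney of goat were sequenced as strand-specific messenger RNA, 3 libraries a tissue. The authors aligned reads with TopHat and estimated FPKM with Cufflinks 2.2.1, per the study's methods and processing notes. The deposited goat table holds log2(FPKM + 1) values, 1 column a library, all of which matched a sample. FPKM normalizes for model length and mapped fragments. No read counts were used, so depth and counting error are unknown, and an exact 0 can be a failed estimate. The deposited protein file held an entry for 18216 of the 22131 goat models and ended within an entry. The cattle and sheep tables were not used.

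The models and lists were chosen with earlier results of these data known. The patterns for the histidine and the modules, and the grouping by them, were chosen after the values were seen. Patterns were matched by regular expression and can miss a diverged domain. A pattern for apple domains, another kind of module, matched 0 of the 17139 models and could show nothing. Modules of other kinds were not searched, so a lack of module patterns refers only to the patterns tried. Hydrophobic stretches were windows of 19 residues with a mean hydropathy of at least 2. Protease regions were aligned with Biopython 1.88. Lists of genes and marker genes planned by symbol, and a choice of the models by symbol, could not be applied because the identifiers matched no symbol.

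Models above 0.5 FPKM in at least 3 of 9 libraries were fitted with limma 3.58.1 (R 4.3.3), 1 mean per tissue, a trend of variance on level, and p-values adjusted after Benjamini and Hochberg in each comparison at 0.05. The fit was also run on simulated data with independent noise and a known shift in a small set of models. That run checks the code only, as it held no pairing by animal, and the accuracy of the calls is not read from it. The main fit had no term for the animal. Its p-values measure the spread between libraries of the same tissue, pooled over the tissues, and leave the pairing by animal unused. That pairing entered only with the replicate block. The rule for named models was up to 10 elevated models per tissue and the 5 highest in each tissue. All 19 tested models are named, the rest of them by choice after the values were seen, and others by count unless stated. Alternatives were a pseudocount of 0.1, no filter, the filter of the study (over 80% of the libraries above 0.5 FPKM), median ratio scaling, quantile normalization, the replicate block and leaving out each library. The study took all tissues from the same animals. Deviations from the tissue means correlated at 0.146 to 0.473 between libraries of the same number (9 pairs) and at -0.417 to 0.134 between other numbers (18 pairs). Deviations within a tissue sum to 0, so these ranges are not independent of each other, and they nearly meet. The numbers were read as pairing the samples by animal, which was not tested in another way.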

Additional observations from a re-analysis of the deposited data

How the results depend on the processing

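Over the 57 comparisons of the 19 tested models, 43 stayed on the same side of the threshold under every alternative that could be run, 14 did not under at least 1, and none changed direction while called. With the filter of the study only 6 models were tested, and 4 were called between heart and liver, 3 between heart and kidney and 3 between liver and kidney, while 1 was elevated in liver, 1 in kidney and 0 in heart. The smaller number tested by that filter, which a model at 0 in 1 tissue cannot pass, is part of its construction. Quantile normalization gave 3 models elevated in heart. At a threshold of 0.1 FPKM, a mean of 11.3 of the 56 was detected in heart libraries and 21.7 in kidney libraries. Without the highest model, the mean summed FPKM was 28.7 in heart and 1783 in liver, and with median ratio scaling the liver sum was 3934. With the replicate block, 14, 11 and 15 models were called in the 3 comparisons, and 9 were elevated in liver, 5 in kidney and 1 in heart, and the block changed no call beyond those of GOAT_ENSP00000404030 and goat_GLEAN_10007712 given in the report. A pseudocount of 0.1 added calls for low levels in 4 comparisons, those of GOAT_ENSBTAP00000002709 between heart and liver (adjusted p = 0.029), GOAT_ENSP00000404030 (0.012) and GOAT_ENSBTAP00000005227 (0.0098) between heart and kidney, and GOAT_ENSP00000273857 between liver and kidney (0.0013), all from limma. The cause of these changes was not tested. Choosing the models by gene symbol was not run. Without the filter, models above 0 in at least 1 library were tested, which took in 43 of the 56. Of these, 12 were elevated in liver, 6 in kidney and 1 in heart, against 1386, 4912 and 2054 of all 17285 models tested. The additional ones were GOAT_ENSBTAP00000010816, GOAT_ENSBTAP00000028678 and GOAT_ENSP00000335332 in liver and GOAT_ENSBTAP00000006807 in kidney. With no read counts, differences among models below 0.5 FPKM have no known precision, so nothing further is read from these added calls.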

Other observations

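A further 6 models held the motif but had a copy suffix. Of these, 5 were listed at 0 in all 9 libraries, and GOAT_ENSBTAP00000033941-D2 had 0.21, 0.0936 and 0.108 FPKM in kidney and 0 elsewhere.

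The histidine pattern occurred without the exact serine motif in 14 models, 5 of which had 1 or 2 substitutions in that motif. Of the 14, 7 passed the filter on low values, and the highest tissue mean was in kidney for 5 of the 7, in heart for 1 and in liver for 1. Among the 19 tested models with the motif, the highest mean was in liver for 11, in kidney for 5 and in heart for 3. These counts are given without a test and without the same count over all tested models. By the different measure of elevation, 34.2% of all tested models were elevated in kidney and 9.59% in liver in the deposited values. With median ratio scaling these shares were 16.6% and 15.4%. No contrast between the lists is therefore read from the counts.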
